A study of Mus musculus with 12 samples.

Results

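The proximal end of mouse chromosome 13 was examined gene by gene in 4 leukaemia cell lines. The members were the genes that start below 60 Mb on chromosome 13 (GRCm38). Each gene was read from 1 probe set, the one with the highest mean log2 level over all 12 arrays among those assigned to that gene alone, and was kept where that mean was above 6.95, the median of all probe sets. Of 377 such genes measured, 206 were kept, 154 lay at or under the level minimum and 17 were left out by name, out of 18193 genes on the arrays. The members were thus chosen by position and selected on their mean levels, and the stretch itself was picked with results of these arrays known, so the counts below describe it and are not independent evidence of its direction. Just inside the minimum lay Slc17a2 at a mean log2 level of 6.98, Akr1c21 at 6.99 and Dbn1 at 7.01, and just outside lay Dsp and Calm4, both at 6.93, and Prl4a1 at 6.92. In position, Isca1, Etohd2 and Tut7 (all starting at 59.8 Mb) were the last members, and Gas1 at 60.2 Mb, BC052688 at 61.8 Mb and Zfp935 at 62.5 Mb were the first genes beyond. A gene high in some lines only can pass the minimum through those lines: 17 members had a mean at or under it in at least 1 line, and 11 of these were called between the parental lines.

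The study asked how gene expression differs between cells of acute myeloid leukaemia (AML) that are sensitive and resistant to cytarabine (Ara-C), a nucleoside analogue that is built into DNA and blocks its synthesis. B117P and B140P are Ara-C-sensitive parental lines of leukaemia cells from BXH-2 mice, a strain known for spontaneous myeloid leukaemia driven by a retrovirus. From B117P came the strongly resistant line B117H, and from B140P came B140H. RNA of each line was read on 3 arrays, with the letters A, B and C. One wording of growth and treatment, rising Ara-C exposure and passage without the drug, was given for all 12 samples, so it does not separate the lines. Each resistant line is a single derivative of its parent, so line and resistance cannot be told apart, and whether it came from 1 cell is not stated. Separate cultures are not mentioned for the arrays of a line, so each p-value reflects only how far these samples scatter, which may be technical.

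Array medians lay between 118 and 132 intensity units. Over all probe sets, correlations ran from 0.988 to 0.997 within a line, from 0.980 to 0.993 between a resistant line and its parent, and from 0.954 to 0.967 between lineages. Of 14 myeloid markers, 14 were above the level minimum in B117P and B117H, 9 in B140P and 10 in B140H. In B140P the stem and progenitor markers Cd34 and Kit had mean log2 levels of 5.36 and 5.15, and the granulocyte and macrophage gene Lyz2 was at 6.75. Other myeloid markers were high in B140P, among them Ctsg at 13.43, Ptprc at 13.33, Prtn3 at 12.08 and Spi1 at 11.31. Of 5 B cell markers measured, 1 was above the minimum in each B117 line and 4 in each B140 line, among them Cd79b and Ebf1 at 10.84 and 9.66 in B140P. Pax5 was at 7.44 in B140P and 7.42 in B117P, and Ms4a1 at 6.42 in both, under the minimum. Of the 14 myeloid markers, 10 had a lower mean in B117H than in B117P, 6 of them past the test described below, with Elane at a log2 change of -1.63 and Lyz2 at -1.13. The other 4, Itgam (0.80), Kit (0.40), Ptprc (0.23) and Cd34 (0.11), had higher means and did not pass. In B140H 1 marker passed, Mpo, at -2.41. The part that a shift of cell state plays in the results below was not tested.

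In the proximal part of chromosome 13 lie several gene families that arose by local duplication: the large cluster of replication-dependent histone genes, a neighbouring group of SCAN and KRAB zinc-finger genes, the prolactin family expressed in the placenta, and serpins. Between them lie genes that nearly every cell uses, for ribosome assembly, protein export and the cell cycle, and genes used by blood cells, such as Syk, the kinase that signals from immune receptors, and Ly86, which partners a Toll-like receptor homologue. Neighbouring genes on a chromosome often have unrelated functions.

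Promoters of 5 members are shown because the results turn on their positions or their opposite behaviour. Heatr1 was lower in B117H, by more than the median member. Smad5 and Hnrnpa0 are the members above a mean log2 level of 8 on either side of the division described below. Actn2 lies among the lower genes but was higher, and Zscan26 is the member with the largest rise in B140H. Each run is the 250 bases before the gene's start, 5′ to 3′, from RefSeq on GRCm38.p6. Capitals mark a CCAAT box (CCAAT or ATTGG) and a GC box (GGGCGG or CCGCCC), searched on both strands together with TATA boxes (TATAAA or TTTATA), of which these 5 hold none.
Heatr1 promoter, chr13:12395125-12395374, plus strand: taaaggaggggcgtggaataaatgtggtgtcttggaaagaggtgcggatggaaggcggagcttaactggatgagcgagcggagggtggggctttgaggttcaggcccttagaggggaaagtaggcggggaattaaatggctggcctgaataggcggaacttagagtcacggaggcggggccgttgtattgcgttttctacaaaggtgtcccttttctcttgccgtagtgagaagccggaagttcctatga
Smad5 promoter, chr13:56702760-56703009, plus strand: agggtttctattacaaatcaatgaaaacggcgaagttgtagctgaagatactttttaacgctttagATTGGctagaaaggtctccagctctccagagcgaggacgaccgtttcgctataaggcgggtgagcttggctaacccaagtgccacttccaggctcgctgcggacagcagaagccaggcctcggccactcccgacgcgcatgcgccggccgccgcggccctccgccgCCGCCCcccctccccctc
Hnrnpa0 promoter, chr13:58128557-58128806, minus strand: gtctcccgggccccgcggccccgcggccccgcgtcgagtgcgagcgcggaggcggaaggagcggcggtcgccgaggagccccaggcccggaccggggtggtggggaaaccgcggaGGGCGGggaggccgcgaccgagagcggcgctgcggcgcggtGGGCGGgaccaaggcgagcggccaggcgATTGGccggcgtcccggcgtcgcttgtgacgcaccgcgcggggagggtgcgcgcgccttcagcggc
Actn2 promoter, chr13:12340733-12340982, minus strand: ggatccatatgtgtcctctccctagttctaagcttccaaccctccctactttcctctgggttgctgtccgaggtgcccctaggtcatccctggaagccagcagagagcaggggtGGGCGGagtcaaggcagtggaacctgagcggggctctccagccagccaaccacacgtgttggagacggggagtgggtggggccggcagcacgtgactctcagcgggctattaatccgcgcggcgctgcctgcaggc
Zscan26 promoter, chr13:21453728-21453977, minus strand: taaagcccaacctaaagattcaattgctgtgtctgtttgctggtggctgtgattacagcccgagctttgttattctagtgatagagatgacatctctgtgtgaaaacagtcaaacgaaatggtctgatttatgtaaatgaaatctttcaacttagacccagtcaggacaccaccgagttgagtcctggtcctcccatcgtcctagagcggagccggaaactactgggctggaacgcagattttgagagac
Promoters were listed for 179 of the 206 members. A GC box stood in 62.7% of 118 promoters of members that were called lower in B117H, in 59.6% of 47 neighbours that were not, and in 49.9% of 14452 promoters of measured genes (33% of all 27025 in the table). A CCAAT box stood in 35.6%, 36.2%, 35.8% and 34.5% of these sets. TATA boxes stood in 6.78%, 4.26%, 9.02% and 13%. In the 13 members after the division described below, GC boxes stood in 46.2%, CCAAT boxes in 53.8% and TATA boxes in 7.69%. The sets of all measured genes and of all promoters include genes under the level minimum, and the members do not. No other set of like level was read, so the part of level was not tested. A match is a description of these letters and not of a factor's binding.

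In B117H, most genes of the proximal stretch were lower than in the parental line. The call was an adjusted p under 0.05 in limma, a linear model fitted over all probe sets, with Benjamini-Hochberg adjustment. By this call 132 of 206 members fell and 2 rose, where 4.68% of all genes fell and 4.73% rose (9.41% called in either direction, and 13.6% among genes past the same level minimum). The median log2 change over the members was -0.61, with the middle of the distribution between -0.86 and -0.15, beside 0.01 over all 11321 genes past the same minimum. The 3 B117H arrays lay all below the 3 B117P arrays for 144 members, against 12.5% of all genes, and all above for 4, against 13.7%. In such bulk RNA, fewer cells expressing a gene and less RNA per cell cannot be told apart. Without all arrays lettered C, which leaves 8 arrays in the fit, the count of called members was 83 in place of 134.

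Among the members that fell, the B117H level was between 34.9% and 76.2% of the B117P level, with a median of 57.7%. Heatr1, which takes part in the making of ribosomal RNA, is an example. Its intensities were 2001, 2160 and 2108 on the B117P arrays and 1015, 1111 and 910 on the B117H arrays. They were 2099, 2187 and 2095 in B140P and 2064, 2262 and 1983 in B140H. The B117H arrays stood apart below all 9 others, which overlapped. The log2 change in B117H was -1.05 ± 0.10 (SE), with a limma adjusted p of 2.11e-05. That is a larger fall than the median of all members, -0.61. The other probe sets of Heatr1, both dimmer, gave -0.46 and -0.09, and neither passed.

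Txndc5, an endoplasmic reticulum protein that forms disulphide bonds, had intensities of 2112, 1638 and 2051 in B117P and 775, 852 and 767 in B117H. In the other lineage they were 1814, 2318 and 2081 in B140P and 2267, 2750 and 2284 in B140H. Again all 3 B117H arrays lay below every other array. Its log2 change was -1.27 ± 0.13 (SE, limma adjusted p = 4.68e-05). Prss16, a serine protease known from the thymus, had the largest fall of all members. Its intensities went from 3408, 3045 and 3867 in B117P to 1258, 1089 and 1248 in B117H, a log2 change of -1.52 ± 0.10 (SE, limma adjusted p = 1.91e-06). The ranges of its parental and resistant arrays were far apart, and in B140P and B140H its mean intensity was 2906 and 3125.

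**Figure D1:**
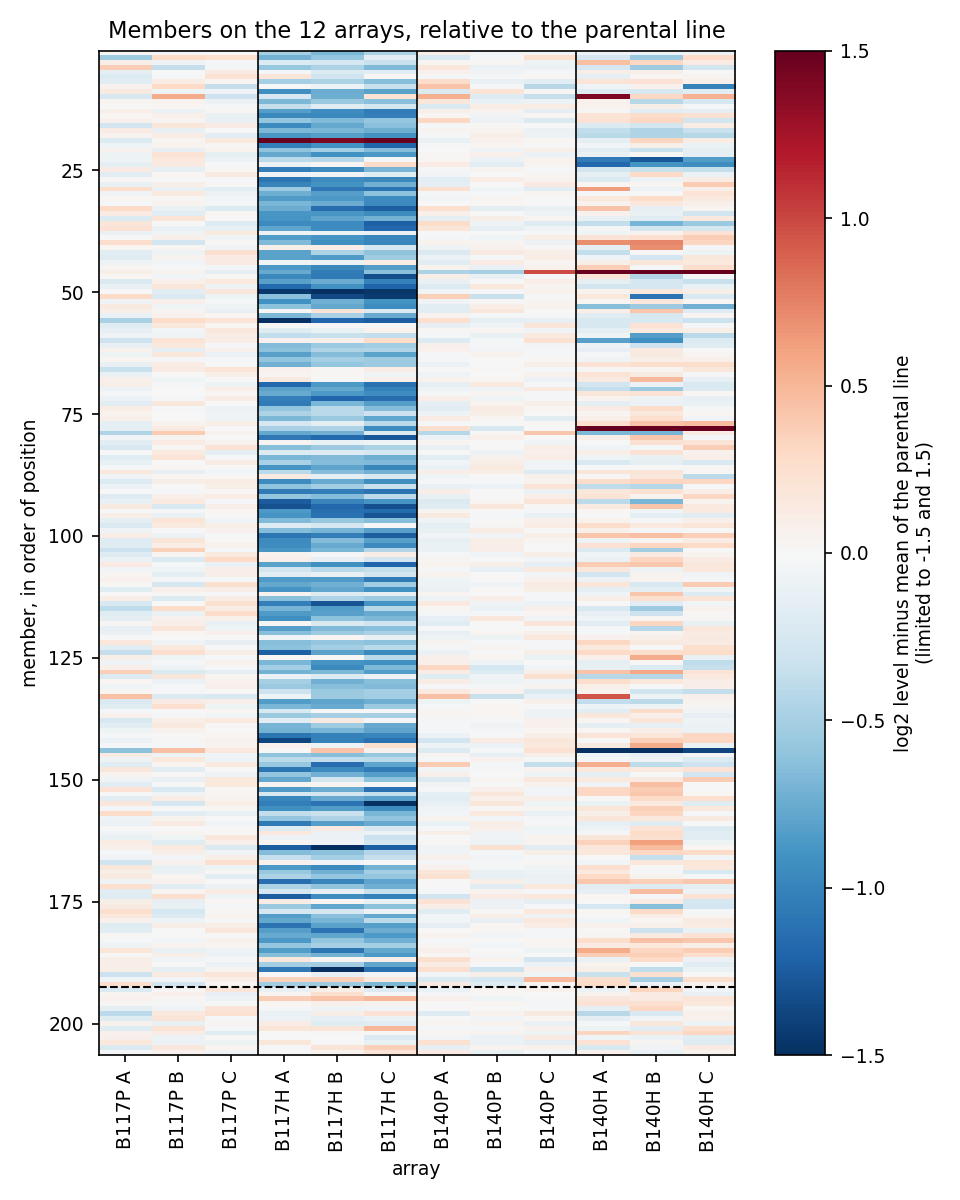
Each row is 1 of the 206 members in order of position, each column 1 array, and colour gives the log2 level minus the mean of the parental line of the same lineage, limited to -1.5 and 1.5. The 3 B117H columns are blue for most rows down to the dashed line at Smad5 and pale below it, while the B140H columns are mostly pale.

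The lower values ran from the first members to the region of Smad5, where their end was not placed exactly. Smad5, which carries signals of bone morphogenetic proteins, starts at 56.7 Mb, and Hnrnpa0, an RNA-binding protein gene, starts 1.42 Mb further on, at 58.1 Mb. This division gave the least scatter of the B117H change among members above a mean log2 level of 8, and was set after the values were seen. Over all members, dim ones included, the same search put the division slightly earlier, between Tifab at 56.2 Mb and Slc25a48 at 56.4 Mb. Between Tifab and Smad5, Slc25a48 had a change of -0.06 and Tgfbi of 0.29. Past Tifab the lower values thus rested on Smad5. Between Smad5 and Hnrnpa0 lay 2 measured genes, both dim. The channel gene Trpc7, a member counted on neither side, had a change of -0.07, and Spock1, under the level minimum, had 0.00.

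Smad5 had intensities of 808, 556 and 692 in B117P and 470, 466 and 425 in B117H, against 1065, 857 and 994 in B140P and 1171, 911 and 1002 in B140H. All B117H arrays were below all others. The log2 change was -0.58 ± 0.14 (SE, limma adjusted p = 0.0248), and the call held in 16 of 23 settings, with adjusted p between 0.00266 and 0.408. It ended when either the A or the C array of B117P, or any of the 3 B117H arrays, was left out. Its other probe sets, both dimmer, gave -0.77, which passed, and -0.20, which did not. For Hnrnpa0, the intensities were 6834, 7010 and 6115 in B117P and 6838, 7832 and 6553 in B117H. These ranges overlapped, the change was 0.09 ± 0.10 (SE), and no setting called it.

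Before the division stood 192 members. Of these, 132 fell and 1 rose, where 4.68% of all genes fell and 4.73% rose, and 177 had a change below 0. Their median was -0.63. The 13 members from Hnrnpa0 on had a median of 0.05. The division was placed by these same B117H changes, so a contrast across it was partly fixed in advance and is no separate evidence. None of those 13 fell and 1 rose, Idnk, a kinase of gluconate, by 0.43 ± 0.08 (SE, limma adjusted p = 0.0059). Dropping all B or all C arrays ended that call, as did averaging the probe sets of Idnk. Beyond 60 Mb, 189 genes past the minimum had a median of 0.04, with 12 higher and 9 lower. The last members before 60 Mb, Isca1, Etohd2 and Tut7, changed by 0.03, 0.17 and 0.09, and the first genes after it, Gas1, BC052688 and Zfp935, by -0.10, 0.28 and 0.11.

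The fall was spread along the whole stretch up to the division. In windows of 10 Mb, 8 of 16 members fell in the first (median -0.55), 19 of 25 in the second (-0.85), 19 of 29 in the third (-0.64), 22 of 27 in the fourth (-0.63) and 26 of 38 in the fifth (-0.66). In the last window, which holds the division, 38 of 71 fell (-0.53). The longest run of neighbouring members with a change below 0 was 38 genes, from Phactr1 at 42.7 Mb to Sema4d at 51.7 Mb. The longest run in which every member fell was 11 genes, from B3galnt2 at 14.0 Mb to Yae1d1 at 18.0 Mb.

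**Figure D2:**
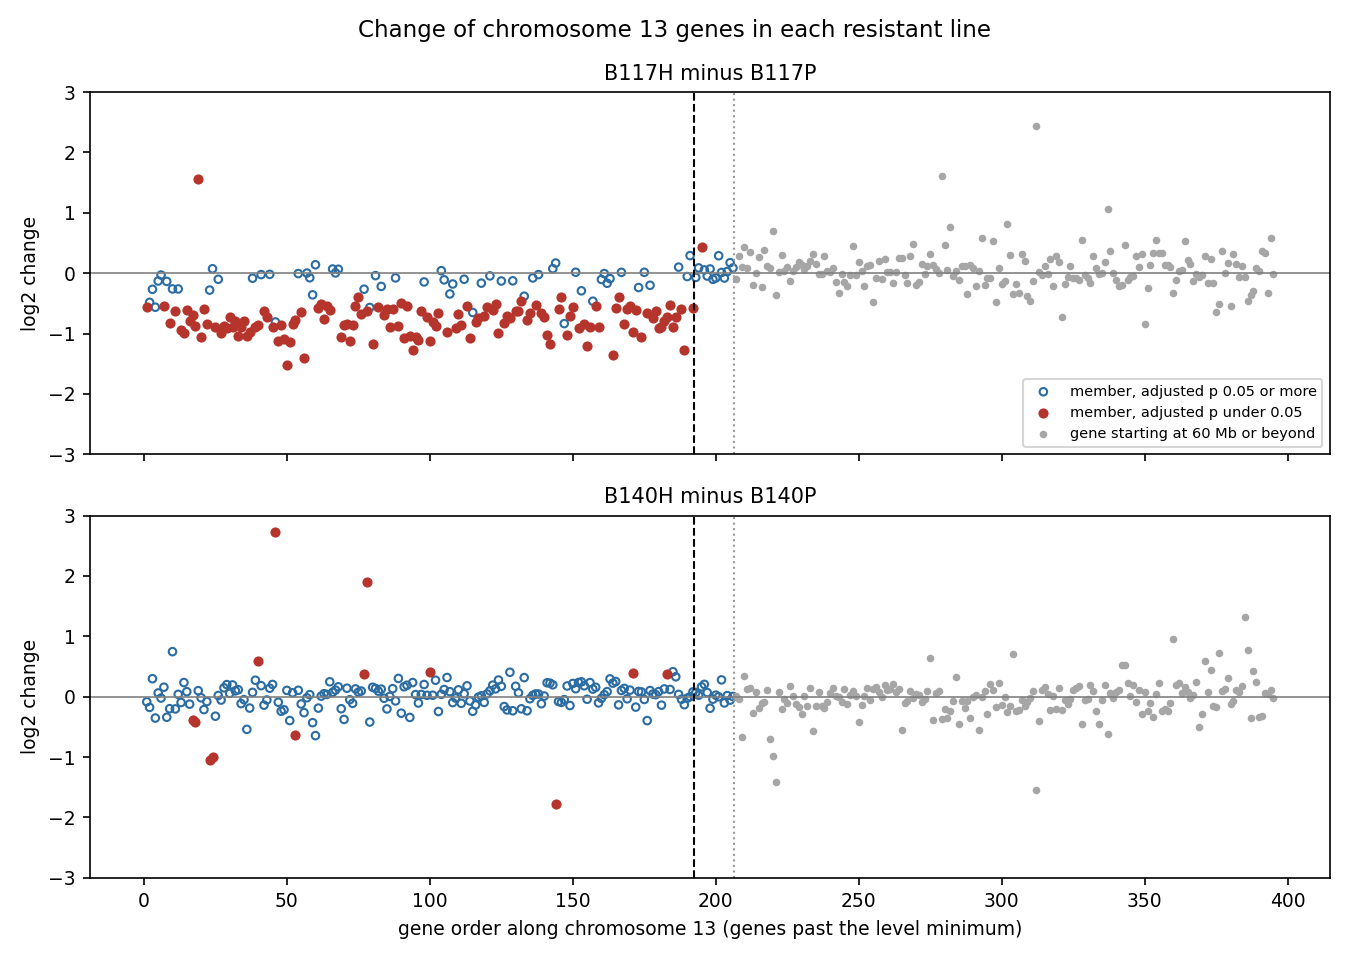
Log2 change of chromosome 13 genes past the level minimum, in order along the chromosome, for B117H minus B117P (top) and B140H minus B140P (bottom); filled red points are members with an adjusted p under 0.05, open blue points are other members, grey points are genes at or beyond 60 Mb. In the top panel red points lie near -0.6 to -1 up to the dashed line at Smad5 and the points after it scatter around 0, while in the bottom panel members scatter around 0 throughout.

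How clearly a member fell went with how bright it was. Of the 47 members before the division with a mean log2 level of 8 or less, 8 fell and 1 rose, where 4.68% of all genes fell and 4.73% rose. Their median was -0.09. Between 8 and 9, 14 of 25 fell, with a median of -0.64. Between 9 and 10 it was 49 of 56 (-0.72), between 10 and 11 30 of 31 (-0.83), and above 11 31 of 33 (-0.73). The part of array background in this relation was not tested.

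Taking the 145 members above a level of 8 together, 124 fell and 0 rose, and the median change of -0.73 left 60.1% of the parental level. Among 8388 genes elsewhere above that level, 564 fell and 618 rose, with a median of 0.03. A change below 0 was found in 142 of the 145. The other 3 were Cmah, which converts a sialic acid, at 0.14, Hdgfl1 at 0.00 and the synaptic gene Cplx2 at 0.01. Their median on each array, relative to the B117P mean, was -0.75, -0.72 and -0.74 on the B117H arrays A, B and C, and between -0.02 and 0.01 on the B117P arrays. On the B140H arrays, relative to B140P, it was between 0.01 and 0.04. Thus all 3 B117H arrays showed the shift at nearly the same size and the B140H arrays did not. Parental arrays lie near 0 here by construction, since each was compared with the mean of its own line.

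**Figure D3:**
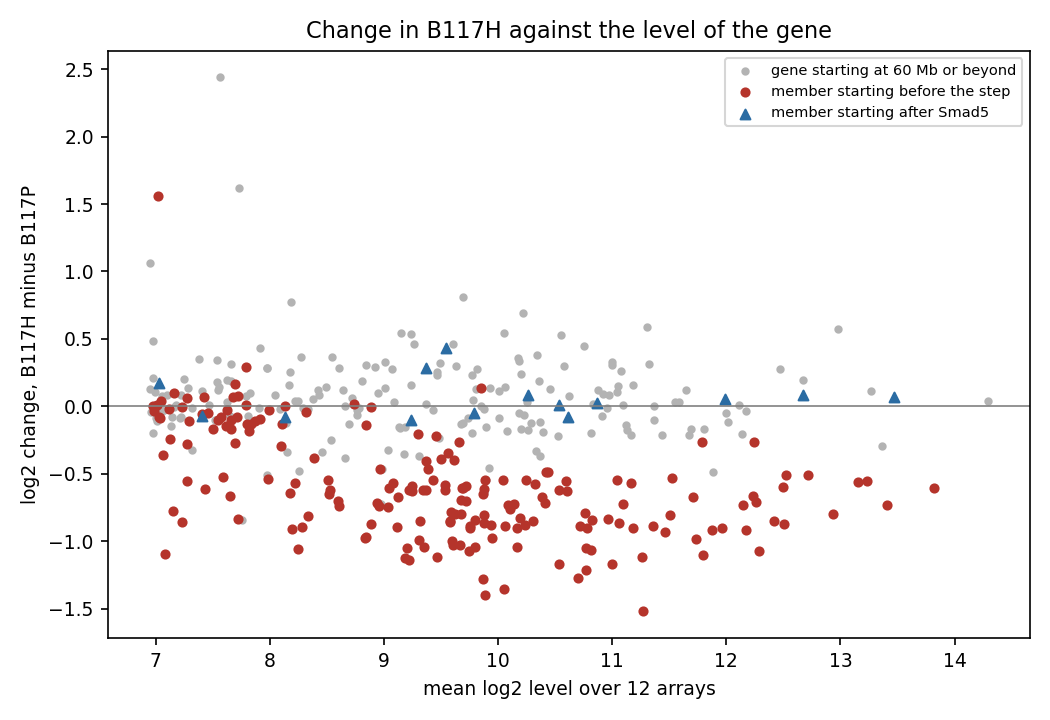
Log2 change in B117H (vertical) against the mean log2 level over all 12 arrays (horizontal) for members before the division (red), members after Smad5 (blue triangles) and chromosome 13 genes at or beyond 60 Mb (grey). Dim red points, up to a level of about 8, sit near 0, and brighter ones sit mostly between -0.5 and -1, while blue and grey points scatter around 0 at all levels.

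Probe sets above the level minimum that the rule did not use were also mostly lower in B117H before the division. For 95 genes before the division, 160 further probe sets were above the level minimum, and 152 of them had a change below 0. Their median was -0.63, and 86 fell and 0 rose, where 4.68% of all genes fell. A further 89 probe sets, of 62 genes, lay at or under the minimum, with a median of -0.10, 6 lower and 0 higher. From 9 genes after the division came 17 further probe sets above the minimum, with a median of -0.01 and 0 called in either direction. These share their RNA with the probe sets of the members and are no separate replicates.

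The fall was most complete in a mixed list of RNA and protein machinery, which takes in protein breakdown as well as production. Before the division, 22 of its 22 members fell, with a median of -0.81. Over all members there, 132 of 192 fell, with a median of -0.63, where 4.68% of all genes fell. The counts of the lists below are to be read beside these shares. Psmg4, which helps to assemble the proteasome, fell by 1.17 on the log2 scale, and Eef1e1, a part of the aminoacyl-tRNA synthetase complex, by 1.10. Ssr1, a subunit of the translocon-associated complex, fell from a mean intensity of 6764 ± 85.4 (SD, n = 3) to 3219 ± 86.5. Mylip, a ubiquitin ligase that targets the LDL receptor, also fell by 1.07. The list was compiled by function with earlier results known, and its members differ in level from those of other lists.

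In the list for the cell cycle and DNA, 11 of 12 members before the division fell, with a median of -0.65. E2f3, a transcription factor of the G1 to S transition, fell by 0.86 on the log2 scale. Others that fell are known for different work. Heatr1 takes part in the making of ribosomal RNA, Cdkal1 (by 1.05) modifies transfer RNA, and Cdk13 (by 0.79) phosphorylates RNA polymerase II. Other probe sets of Cdk13 gave -1.01, which passed, and 0.02 and -0.02, which did not. That of Cdkal1 gave -0.21, which did not pass, and that of E2f3 gave -0.32, which did. Net1, an activator of RhoA, had a change of -0.56 with a limma adjusted p of 0.0505. Of 10 zinc-finger genes 8 fell, with a median of -0.77, among them Zfp322a (by 1.14), Zkscan8 (by 1.12), Zfp184 (by 1.09) and Zkscan3 (by 0.89). The Zfp322a call (limma adjusted p = 0.0382) ended when any array of B117P, the B or C array of B117H or the C array of B140P was left out, with adjusted p up to 0.434 over the settings tried.

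Transcription factors and chromatin proteins fell in 8 of 13 cases, with a median of -0.61. Zmynd11, a reader of histone methylation, fell by 0.79, Arid4b, a subunit of a histone deacetylase complex, by 0.72, Kdm1b, a histone demethylase, by 0.70, and Cdyl, a chromodomain co-repressor, by 0.69. Zmynd11, Kdm1b and Cdyl lost the call in fits that dropped all arrays of 1 letter, and Arid4b when its probe sets were averaged. Klf6, Hdgfl1, Tfap2a, Nfil3 and Pitx1 did not pass. Of 3 histone genes past the minimum, the linker histone gene H1f2 fell from 1348 ± 355 to 505 ± 102 (SD, n = 3) and H2bc22 by 0.86 on the log2 scale, while the testis linker histone gene H1f6 was at 144 in both lines. The other probe sets of H1f2 gave -1.40, which passed, and -0.03, which did not. Histone genes resemble each other closely, so a probe set may read more than 1 of them.

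In the list for immune signalling, 15 of 21 members before the division fell, with a median of -0.63. This was near the share of all members there, 132 of 192, with a median of -0.63. The list is broad and also takes in Txndc5, with a log2 change of -1.27, Tgfbi, Hfe and Gpr137b. Tifab, a regulator of innate immune signalling, fell by 1.28, the semaphorin Sema4d by 1.17 and the phosphatase Dusp22 by 1.12. The other probe set of Tifab gave -1.54, which passed, and those of Sema4d gave -0.41 and 0.01, which did not. Ly86 had a mean intensity of 6830 ± 791 in B117P and 3715 ± 263 in B117H (SD, n = 3), and Syk of 786 ± 58.5 and 517 ± 13.1. In metabolism and transport 17 of 27 fell, with a median of -0.62, likewise near that of all members before the division. Hk3, the hexokinase of myeloid cells, fell by 1.35, Tmem14c, needed for haem synthesis in mitochondria, by 1.12, the glycosyltransferase gene B3galnt2 by 1.0 and Ggps1, which makes geranylgeranyl diphosphate, by 0.91. The Ggps1 call ended without the A array of B117P or the B or C array of B117H.

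Among genes of the cytoskeleton and vesicle traffic, 12 of 16 fell and 1 rose, with a median of -0.75. Lman2, a cargo receptor between the endoplasmic reticulum and the Golgi, fell by 0.98, Tbc1d7, a subunit of the TSC complex, by 0.97, and Tmed9, of the p24 cargo family, by 0.92. The other probe sets of Lman2 and Tmed9 gave -0.96 and -0.97, which passed, and that of Tbc1d7 gave -0.06, which did not. Of the 68 members before the division on no list, 37 fell, with a median of -0.53. Nop16, a nucleolar protein of ribosome assembly that was on no list here, fell by 1.21. Its other probe set gave -0.42, which did not pass. Each of the 8 lists thus held members that fell. The 154 proximal genes at or under the level minimum had a median of -0.05, with 3 lower and 0 higher in limma and 8 at an unadjusted p under 0.05.

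Actn2, the alpha-actinin of muscle Z-discs, was the 1 member before the division that rose. It starts at 12.3 Mb, close to Heatr1 at 12.4 Mb. Its intensities were 85, 101 and 109 in B117P and 300, 261 and 310 in B117H, and they ran from 86 to 118 over the 6 arrays of the B140 lines. The B117H arrays lay above all others, and the log2 change was 1.56 ± 0.13 (SE, limma adjusted p = 1.07e-05). In the other 3 lines it was below the minimum of the rule, so it was a member only through B117H. Heatr1 and Actn2, whose promoters are shown above, thus moved in opposite directions from nearby positions.

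**Figure D4:**
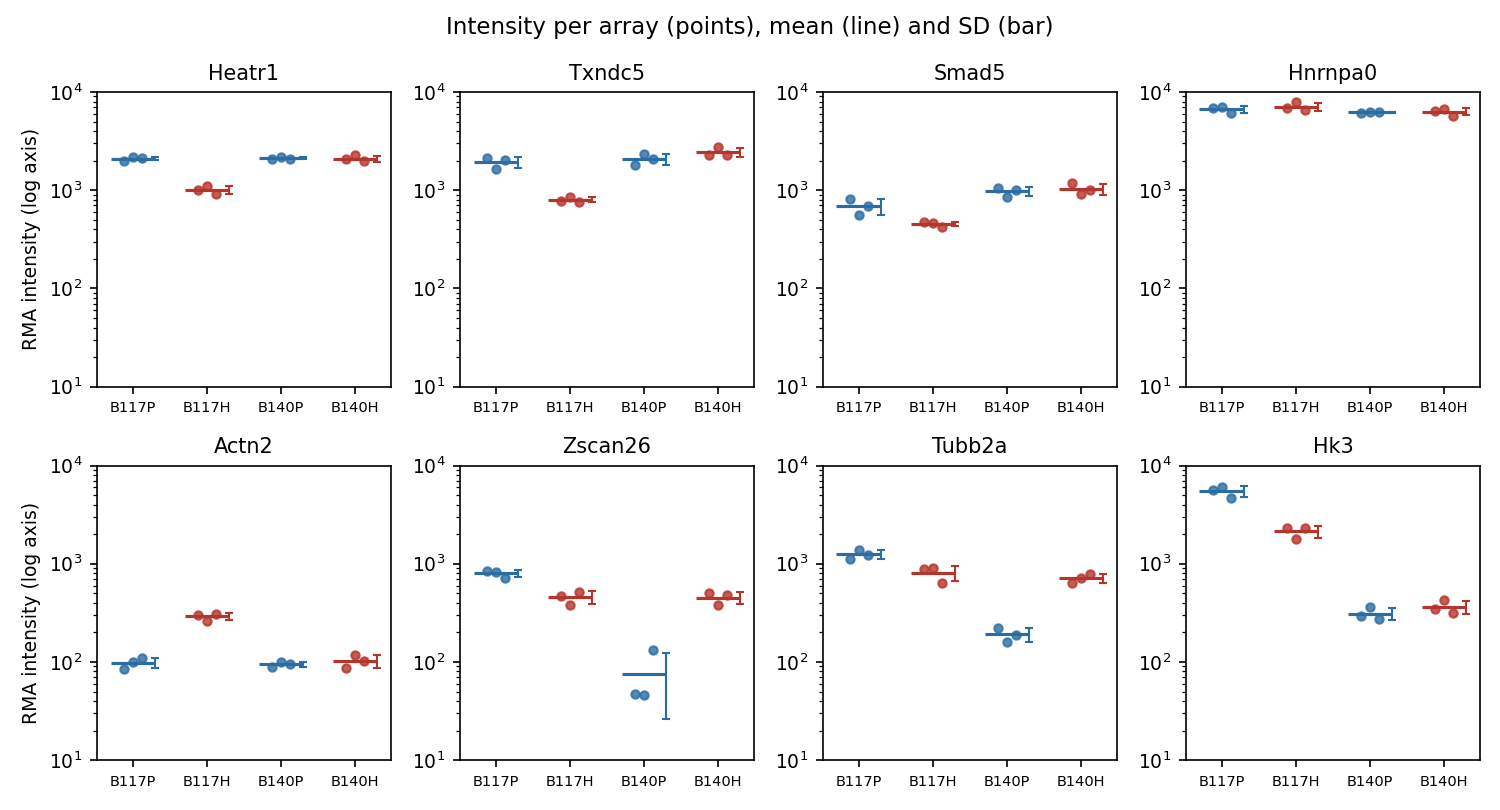
RMA intensity on a log axis for 8 members in the 4 lines; points are arrays, lines the mean of 3 and bars the SD. Heatr1, Txndc5 and Smad5 are lower in B117H than in the 3 other lines, Hnrnpa0 is level, Actn2 is high in B117H alone, Zscan26 and Tubb2a are lowest in B140P, and Hk3 is higher in both B117 lines than in both B140 lines.

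In B140H the stretch showed no such shift. Against B140P, 7 members rose and 6 fell, where 2.81% of all genes rose and 3.75% fell. These calls were 6.31% of the 206 members, beside 6.56% of all genes and 9.61% of those past the minimum, and the median change was 0.04, as over all genes past the minimum. The count was 6 in a fit on this pair's arrays alone, 6 without the A or the B array of B140P, and 7 without the B array of B140H. By letter, 92, 77 and 94 of the 192 members before the division were lower in B140H in pairs A, B and C, against 161, 174 and 182 lower in B117H.

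Zscan26, a SCAN-domain zinc-finger gene, had the largest change in B140H. Its intensities were 48, 47 and 131 in B140P and 498, 378 and 476 in B140H, so the groups did not overlap, though 1 parental array stood above the other two. The log2 change was 2.74 ± 0.30 (SE, limma adjusted p = 0.000179). In B117P it was at 844, 825 and 723 and in B117H at 472, 383 and 517. That fall of the means, a change of -0.81, had an adjusted p of 0.171 and passed in 3 of 23 settings, among them the fit without the C array of B140P (limma adjusted p = 0.00341).

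Tubb2a, a beta-tubulin gene, rose in B140H from 224, 160 and 189 to 638, 707 and 777, a log2 change of 1.89 ± 0.15 (SE, limma adjusted p = 1.75e-05). In B117H it went the other way, from 1122, 1379 and 1239 to 890, 904 and 644, without overlap in either pair (a change of -0.63, limma adjusted p = 0.0255), a call that ended without the B or C array of B117P or the C array of B117H. Its probe set is of a kind shared between similar transcripts, and its neighbour Tubb2b is nearly identical. Its other probe set, much dimmer, gave 0.21 in B140H with an adjusted p of 0.521, so the value may not belong to Tubb2a alone.

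Diras2, a small Ras-like GTPase gene, fell in B140H. Its intensities were 991, 1126 and 1331 in B140P and 259, 325 and 438 in B140H, while in the B117 lines they lay between 42 and 89. The log2 change was -1.77 ± 0.25 (SE, limma adjusted p = 0.00104). Diras2 was a member only through the B140 lines. Its other probe set, under the level minimum, gave -0.09 in B140H and 0.20 between the parental lines, and neither passed. Gpr137b, which encodes a lysosomal membrane protein, fell by 1.0 on the log2 scale from a mean of 285 ± 28.8 to 142 ± 15.1 (SD, n = 3), together with its pseudogene Gpr137b-ps. The 2 are near-identical copies whose signals may be mixed, and without probe sets of the shared kind the Gpr137b call ended (adjusted p = 0.38).

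The other B140H calls were smaller. Stard3nl, a late endosome protein, rose by 0.58, Tmem14c by 0.41, Lman2 by 0.39, the hydrolase gene Bphl by 0.38 and the splicing helicase gene Ddx46 by 0.37. Methionine synthase, Mtr, had a change of -0.38. Each of these 6 lost its call without the A or the B array of B140P. Averaging the probe sets of a gene ended the calls of Ddx46, Bphl, Lman2 and Mtr. The other probe sets of Ddx46 gave -0.18, -0.22, 0.18 and 0.08 in B140H, and that of Lman2 gave 0.10. None of these passed. Members called in both pairs numbered 8. Of these, 3 fell in both, Mtr and 2 unnamed transcripts, and 5 fell in B117H and rose in B140H: Stard3nl, Tubb2a, Tmem14c, Lman2 and Ddx46.

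The difference between the pairs was tested itself, as the B140 change minus the B117 change. It passed for 111 members, 53.9% of them, against 10.4% of all genes and 15.2% of those past the minimum. For 107 the B140 value was the larger (4.91% of all genes) and for 4 the smaller (5.51%), and 104 of the 132 members that fell in B117H were among the former. From Hnrnpa0 on, 0 of 13 passed in limma, and 1 had an unadjusted p under 0.05. The largest differences were those of Zscan26 at 3.54 and Tubb2a at 2.52. Fits without all arrays of letter A, B or C, with 8 arrays each, called 66, 51 and 39.

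The parental lines differed in single genes of the stretch, without a common shift. In B140P against B117P, 29 members were higher (12% of all genes) and 25 lower (11.8%), 26.2% of the 206 beside 23.8% of all genes, with a median of 0.02. This comparison shares its B117P arrays with the B117H comparison. Without all B or all C arrays 33 and 27 were called. Among all genes past the same level minimum 34.7% were called, so the members' share was not above that of genes of like level.

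Hk3 was the member with the largest difference. Its intensities were 5684, 6003 and 4638 in B117P and 2292, 1794 and 2312 in B117H, but 296, 361 and 274 in B140P and 347, 428 and 315 in B140H. The 4 lines thus formed 3 separate levels, with B117P highest, B117H next and both B140 lines overlapping at the bottom. The parental log2 difference was -4.13 ± 0.15 (SE, limma adjusted p = 6.2e-10). Also lower in B140P were Zscan26 (by a log2 difference of -3.56), Dip2c (-3.19), Tubb2a (-2.71), the aldo-keto reductase gene Akr1e1 (-2.63), the transcription factor gene Nfil3 (-2.44) and Hfe (-2.28), a regulator of iron uptake. Smaller values were those of Susd3 (-1.28), Mylip (-1.22) and Carmil1 (-0.88), a regulator of actin capping. Of these, Zscan26 and Tubb2a were low in B140P only, with mean log2 levels of 8.81 and 9.46 in B140H beside 8.83 and 9.65 in B117H. Dip2c, Akr1e1, Nfil3 and Carmil1 were at or under the level minimum in both B140 lines, so they were members only through the B117 lines. In B117H, Dip2c, Akr1e1 and Hfe had changes of -0.61, -0.54 and -0.64 that passed.

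Higher in B140P were Diras2 (4.12), the matrix protein gene Tgfbi (3.14), the adaptor gene Dok3 (2.05) and Cmah (1.72). Tgfbi, which starts at 56.6 Mb, close to Smad5, was at 67, 68 and 75 in B117P and at 538, 518 and 874 in B140P, and like Diras2 it was a member only through the B140 lines. Dok3 had a mean intensity of 316 ± 55.2 in B117P and 1305 ± 155 in B140P (SD, n = 3). Smaller differences included Ninj1, a membrane protein gene (0.71), the galectin gene Lgals8 (0.80) and Net1 (1.05), each higher in B140P. Of the members that differed between the parental lines, Hk3 thus fell in B117H and Cmah, with a change of 0.14 there, did not pass.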

How the data were processed

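Total RNA of 4 mouse leukaemia cell lines was measured on 12 one-colour arrays, 3 per line, grouped by the cell line in the labels. The intensity values as deposited are linear (from 7.65 to 36675) and were summarised by the authors with RMA, per the submitters' processing notes; its version is not given in the sources used here. No detection calls were used, and the number of arrays limits the precision.

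Values were used as log2(value + 1). Of 45101 probe sets, 64 controls were left out. Of 45037 tested, 34945 had 1 gene symbol, 932 several and 9160 none. The RefSeq gene table (GRCm38.p6) placed 18142 of 18193 genes. The files' own build is not given in the sources used here. Contrasts were fitted with limma 3.58.1 in R 4.3.3 on all 12 arrays, 1 coefficient per line, two-sided, with Benjamini-Hochberg adjustment over all probe sets tested and calls at an adjusted p under 0.05. The fit had 8 residual and 4.65 prior degrees of freedom. It was tested on simulated data.

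The members and the lists by function were chosen with earlier results of these data known. Named genes are, per comparison, up to 10 called members with the largest rises and falls whose arrays do not overlap, the 8 largest differences between pairs, members called in both pairs, up to 4 called members per list, those next to the limits of level and position, and ends of runs; predicted and clone names are counted only. Smad5, Hnrnpa0, Trpc7, Spock1, Slc25a48, Heatr1's neighbour pair and the members of a high level that did not fall were singled out after their values were seen, as were Klf6, Hdgfl1, Tfap2a, Nfil3 and Pitx1, Ly86 and Syk. Markers of T, erythroid and fibroblast cells were also read: 3 of 5, 1 of 4 and 1 of 5 were above the level minimum in B117P, and 3, 1 and 2 in B140P.

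The array letters deviated together in the B140 pair (correlations of 0.587, 0.360 and 0.560 for A, B and C) and between the parental lines (0.499, 0.131 and 0.414), but not for every letter in the B117 pair (0.555, 0.0278 and 0.392). The letter as a block, scaling, pseudocount, low-value filter, prior, probe set choice, threshold and left-out arrays were tried as alternatives.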

Additional observations from a re-analysis of the deposited data

Results flagged for a closer look

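The 2 resistant lines differed in their changes from the parental line, by limma's test of the difference itself (B140 change minus B117 change, on the log2 scale). It was larger in the B140 pair for 107 members and smaller for 4. Among single members with an adjusted p under 0.05 it was 3.54 for Zscan26, 2.52 for Tubb2a, 1.62 for Prss16, 1.58 for Hk3, 1.53 for Tmem14c and 1.5 for Txndc5. For Diras2 it was -1.94 and for Actn2 -1.46, where Diras2 fell in B140H and Actn2 rose in B117H. The Diras2 call ended without all B arrays (adjusted p = 0.0596), and the Tubb2a call without probe sets shared between similar transcripts (adjusted p = 0.186).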

How the results depend on the processing

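The count of members called in B117H (134) was 83 without all C arrays, and that of falls before the division (132, a result added after seeing the data) was 82. With single arrays left out they ranged from 120 to 137 and from 118 to 135. The median of the B117H changes was -0.55 with the mean of probe sets and ranged from -0.6344 to -0.6077 with arrays left out. In B140H the count (13) was 6 with only the pair's arrays and 6 at an adjusted p under 0.01. It was 6, 5 and 5 without all A, B or C arrays, and ranged from 6 to 14 with single arrays left out. The B140H median was -0.0064, of the other sign, with arrays centred on their medians, ranged from 0.0092 to 0.0552 with single arrays left out and was 0.0616 without all C arrays. Between the parental lines the count (54) was 33 without all B arrays, 27 without all C arrays and 34 at the stricter threshold, with a range of 38 to 56. That median ranged from 0.0017 to 0.0458 with single arrays left out, was 0.0439 without all C arrays and -0.0064 without all A arrays. The difference between pairs (111) was called for 66, 51 and 39 members without all A, B or C arrays and for 72 at the stricter threshold, with a range of 90 to 109. Fits without a letter rest on fewer samples; otherwise the cause was not tested. With the replicate letter as a block the counts were 140 (B117H), 19 (B140H), 67 (parental lines) and 128 (difference), and the medians did not move. The pairing by letter is described with the processing. Of 91 named results, 34 lost a call under at least 1 setting, 57 kept it under all, and 0 reversed.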
